A study of Homo sapiens with 24 samples.

Results

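PMEPA1, SMAD7, SMAD6, BAMBI, SKIL, TGIF1, ID1, ID2 and ID3 are feedback inhibitors, co-repressors and target genes of SMAD signalling, and their transcript levels were followed here in osteosarcoma cells given a transcriptional kinase inhibitor. All probe sets whose only annotated symbol was one of these names were taken. This gave 23 of 49372 probe sets, and 9 of the 18132 genes that the array names with a probe set of their own. All 9 passed the filter on dim genes, which 16175 genes passed. Each gene is described by its brightest probe set: 11716151_a_at for PMEPA1, 11725514_a_at for SMAD7, 11730338_a_at for SMAD6, 11756509_a_at for BAMBI, 11741553_a_at for SKIL, 11740681_a_at for TGIF1, 11716196_x_at for ID1, 11715994_x_at for ID2 and 11757404_x_at for ID3.

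The study used SJSA-1 and U2-OS, both established human osteosarcoma lines, grown in medium with serum. Each line was given THZ2 at 25, 100 or 400 nM, or DMSO as the solvent control, for 6 h before RNA was taken, with 3 Affymetrix PrimeView arrays in each of the 8 groups. THZ2 binds CDK7 covalently and blocks it. CDK7 is the kinase subunit of TFIIH, a general transcription factor, and it phosphorylates the tail of RNA polymerase II. The labels do not say whether the 3 arrays of a group came from separate cultures, so p-values measure the spread between these arrays, which may be technical. Each line is a single cell line, and the labels name no added ligand or receptor inhibitor of the pathway in any group. The treatment protocol and the extraction protocol name different reagents for taking the RNA, and the extraction protocol also names a different tissue, so the levels of markers of other tissues are given below.

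TGF-beta and BMP ligands bind pairs of receptor kinases, which phosphorylate receptor SMADs. The TGF-beta branch uses SMAD2 and SMAD3, the BMP branch uses SMAD1, SMAD5 and SMAD9, and both join SMAD4 and enter the nucleus. Genes they activate include the inhibitors of the pathway itself. SMAD7 and SMAD6 compete with receptor SMADs at the receptors, PMEPA1 keeps SMAD2 and SMAD3 away from the receptor complex, and BAMBI is a receptor look-alike without a kinase. SKIL, also called SnoN, and TGIF1 hold SMAD target genes down in the nucleus. The ID proteins, dominant negative partners of basic helix-loop-helix factors, are classic BMP targets, and in bone the BMP branch promotes the osteoblast fate.

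The start-site windows below are shown for members whose transcripts moved in different ways: PMEPA1 and SMAD6 with the deepest falls at 100 nM in SJSA-1, BAMBI with a rise in 1 line, and the ID genes, of which ID2 moved opposite to ID1 and ID3. Each is 300 bases from RefSeq on GRCh38.p14, from 250 bases before the annotated start to 50 bases from it, on the gene's own strand. Capitals mark matches to GTCTAGAC, the palindromic SMAD-binding sequence, CAGACA, a SMAD-binding sequence, GGCGCC, a GC-rich sequence bound by BMP SMADs, and TATAAA, the TATA box. Both strands were searched, and in ID1 the TATAAA matches of the 2 strands overlap.
PMEPA1, chr20:57711423-57711722, minus strand: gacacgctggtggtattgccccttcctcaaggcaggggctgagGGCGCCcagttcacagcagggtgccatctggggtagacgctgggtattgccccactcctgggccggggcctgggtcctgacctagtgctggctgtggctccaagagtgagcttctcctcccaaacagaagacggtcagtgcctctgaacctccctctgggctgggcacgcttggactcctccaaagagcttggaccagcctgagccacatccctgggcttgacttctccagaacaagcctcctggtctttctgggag
SMAD6, chr15:66701986-66702285, plus strand: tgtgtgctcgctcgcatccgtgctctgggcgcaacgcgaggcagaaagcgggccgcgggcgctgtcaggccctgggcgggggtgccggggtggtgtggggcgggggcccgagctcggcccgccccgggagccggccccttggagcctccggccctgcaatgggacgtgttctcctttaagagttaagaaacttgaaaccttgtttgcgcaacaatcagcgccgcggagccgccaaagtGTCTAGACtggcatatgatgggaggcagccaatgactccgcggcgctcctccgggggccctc
BAMBI, chr10:28677271-28677570, plus strand: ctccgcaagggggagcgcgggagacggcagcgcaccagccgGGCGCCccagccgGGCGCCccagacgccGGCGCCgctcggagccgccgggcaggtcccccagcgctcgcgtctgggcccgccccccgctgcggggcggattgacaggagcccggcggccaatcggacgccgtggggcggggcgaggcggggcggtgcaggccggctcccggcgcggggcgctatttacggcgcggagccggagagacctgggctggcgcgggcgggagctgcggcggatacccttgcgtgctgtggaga
ID1, chr20:31605039-31605338, plus strand: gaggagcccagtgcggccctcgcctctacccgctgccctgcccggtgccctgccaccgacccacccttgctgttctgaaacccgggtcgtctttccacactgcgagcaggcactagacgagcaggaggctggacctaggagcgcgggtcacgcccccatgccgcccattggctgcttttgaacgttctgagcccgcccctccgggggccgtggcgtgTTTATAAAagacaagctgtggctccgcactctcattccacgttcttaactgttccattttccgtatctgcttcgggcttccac
ID2, chr2:8681806-8682105, plus strand: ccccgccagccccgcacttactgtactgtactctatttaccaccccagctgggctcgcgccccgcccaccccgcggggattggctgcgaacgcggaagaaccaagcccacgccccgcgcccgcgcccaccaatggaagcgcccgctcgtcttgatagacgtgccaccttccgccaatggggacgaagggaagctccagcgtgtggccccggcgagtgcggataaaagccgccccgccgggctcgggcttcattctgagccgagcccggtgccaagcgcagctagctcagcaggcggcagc
ID3, chr1:23559452-23559751, minus strand: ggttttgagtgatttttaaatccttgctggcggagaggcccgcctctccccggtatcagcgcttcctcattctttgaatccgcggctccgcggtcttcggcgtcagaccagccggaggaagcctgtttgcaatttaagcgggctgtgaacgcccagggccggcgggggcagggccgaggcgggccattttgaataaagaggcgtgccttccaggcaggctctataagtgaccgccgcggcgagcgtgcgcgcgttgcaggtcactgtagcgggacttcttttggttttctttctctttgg
The SMAD6 window holds GTCTAGAC with its first base 12 bases before the start, a sequence found in 71 of 35116 RefSeq windows of this length (0.202%). The BAMBI window holds GGCGCC 3 times, beginning 209, 196 and 181 bases before the start, and the PMEPA1 window shown, that of its outermost start, holds it once, 207 bases before. GGCGCC occurs in 19.2% of windows. ID1 has a TATA box beginning 31 bases before its start, as 11.5% of windows have somewhere. The ID2 and ID3 windows hold none of the 4 sequences, which says only that these letters are not in these windows. The 9 genes have 20 windows in all, 4 of them for PMEPA1, 3 for SMAD7 and 7 for TGIF1, and another PMEPA1 window holds CAGACA, which 16.9% of windows hold. Such matches describe the sequence and not binding.

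In what follows an intensity is the deposited linear value of a gene's brightest probe set, ± after an intensity is the SD of 3 arrays, and a log2 change is the difference of group means of log2(intensity + 16), ± its standard error from a limma model over all 24 arrays (n = 3 per group). "Rose" and "fell" are used where the Benjamini-Hochberg adjusted p over all 16175 genes was under 0.05. With 3 arrays a group, precision is limited by their number. Arrays of 2 groups often failed to overlap among all genes too. Against DMSO this share was 17.6% at 25 nM, 54.8% at 100 nM and 62.4% at 400 nM in SJSA-1. In U2-OS it was 24%, 65.6% and 81.5% in the same order. It was 48.8% in SJSA-1 and 67.8% in U2-OS from 25 to 100 nM, and 31.6% and 69.3% from 100 to 400 nM. In bulk RNA, fewer cells with a transcript and less of it per cell cannot be told apart.

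The median intensity per array was 23.4 to 25.5 in SJSA-1, 36.6 to 37.3 in U2-OS at 400 nM and 33.5 to 34.5 in the other U2-OS arrays. Exactly equal values were shared by 0.853% to 5.47% of probe sets between arrays within each of these 3 sets, and by at most 0.00405% across sets, so they were taken as normalized apart. A 400 nM effect in U2-OS, and any level set between lines, therefore cannot be told apart from the normalization set. In SJSA-1 the values were rounded to hundredths of log2. Such rounding alone can give equal values within that set and few with U2-OS. For SJSA-1 the equal values therefore cannot show how its arrays were normalized. When arrays were centred on the poly-A spike-ins, the all-gene median of the log2 changes moved from 0.057 to -0.39 at 100 nM and from 0.10 to -0.84 at 400 nM in SJSA-1. In U2-OS it moved from 0.058 to -0.30 at 100 nM and from 0.15 to -0.16 at 400 nM. The spike-ins themselves differed within groups, with mean log2 values in SJSA-1 of 7.84, 8.90 and 7.38 at 400 nM and 6.74, 7.15 and 7.39 with DMSO. This spread enters the error after spike-in centring, so a call can be lost there without a smaller change. Changes below are on the deposited scale, relative to the all-gene medians. VIM and SPARC, mesenchymal markers, were bright in both lines. Of the 10 mesenchymal and bone markers COL1A2 and TWIST1 were under the filter intensity of 12.7 with DMSO in U2-OS (8.604 and 6.26), and the osteoblast factor SP7 was with DMSO in SJSA-1 (11.02). MDM2 and CDK4, known to be amplified in SJSA-1, averaged 835 and 7547 in SJSA-1 with DMSO against 87.1 and 1231 in U2-OS with DMSO.

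The summed levels of marker lists of other tissues moved with the 400 nM groups. The 7 nervous markers measured of 8 summed to 148 to 160.0 at 400 nM against 116 to 121 with DMSO in SJSA-1, and to 883 to 972 against 629 to 674 in U2-OS. NEFL, a neuronal gene, made up most of the U2-OS sum, at 621 against 418. GFAP, an astrocyte gene, averaged 77.04 at 400 nM against 84.2 with DMSO in U2-OS and 49.5 against 35.7 in SJSA-1. The 6 blood markers measured of 7 summed to 135 to 151 against 97.8 to 109.9 in SJSA-1 and to 162 to 186 against 136 to 145 in U2-OS. The 6 epithelial markers summed to 220.0 to 241 against 151 to 189 in SJSA-1 and to 379 to 404 against 254 to 266 in U2-OS. Their part in the results was not tested. AQP4, PTPRC and LYZ, markers of astrocytes, blood cells and myeloid cells, had means under the filter intensity of 12.7 in every group, and no marker was at 0. Other blood markers were brighter, HBB averaging 48.2 to 90.1 over the groups and CD14 25.3 to 41.6 in those of SJSA-1. With DMSO in SJSA-1, 4 of 7 nervous, 4 of 6 blood and 2 of 6 epithelial markers were under 12.7. In U2-OS these numbers were 2, 3 and 0.

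The 9 genes did not move as a block. In SJSA-1 none rose and 1 of 9 fell at 25 nM, where 1.97% of all genes rose and 6.28% fell. At 100 nM 1 rose and 6 fell (24.4% of all genes rose and 25.1% fell), and at 400 nM none rose and 8 fell (41.4% of all genes rose and 24.9% fell). In U2-OS none passed at 25 nM, where 0.0247% of all genes rose and 0.0556% fell. At 100 nM 3 rose and 5 fell (19.8% of all genes rose and 22.2% fell), and at 400 nM none rose and 8 fell (48.4% of all genes rose and 25.0% fell). The U2-OS count at 400 nM includes ID2 by its brighter probe set, against which its other probe set goes. The median log2 change of the 9 genes was -0.28 at 100 nM and -1.77 at 400 nM in SJSA-1, against 0.057 and 0.10 over all genes. In U2-OS it was -0.36 and -0.91, against 0.058 and 0.15 over all genes. The counts and medians describe a list chosen with earlier results known. PMEPA1 was low from 100 nM, TGIF1 dropped between 100 and 400 nM, ID2 rose at 100 nM in both lines, and BAMBI and SMAD7 rose at 100 nM in U2-OS.

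**Figure D1:**
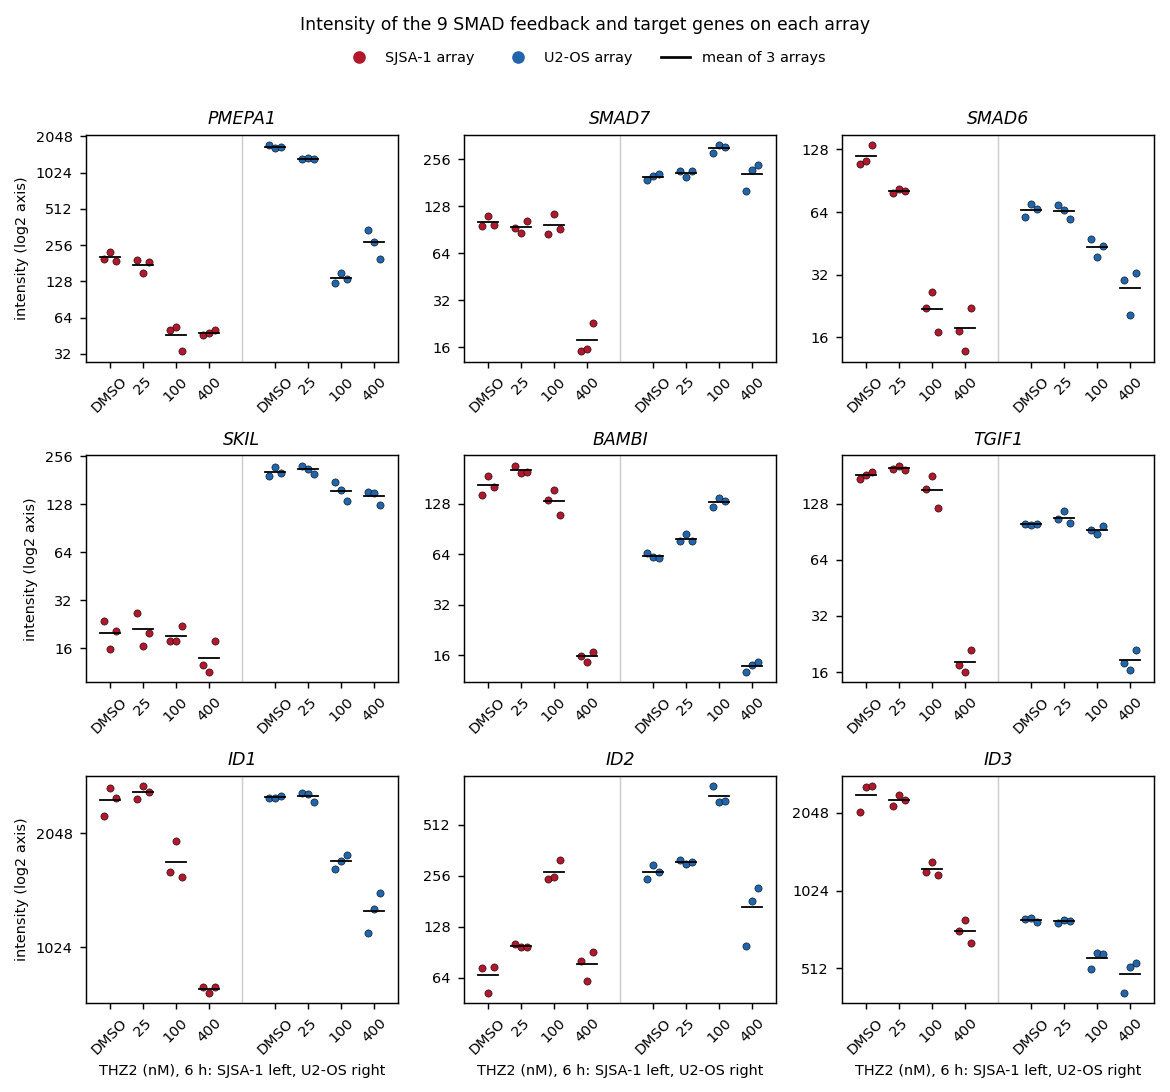
Intensity of each of the 9 genes on each array (log2 axis, own range per panel), by THZ2 dose, with SJSA-1 left and U2-OS right; points are arrays and bars are means of 3. PMEPA1 dropped between 25 and 100 nM in both lines, BAMBI and TGIF1 lay under 22 at 400 nM, and ID2 was highest at 100 nM.

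PMEPA1, which sequesters SMAD2 and SMAD3, had the largest fall of the 9 genes in U2-OS at both 100 and 400 nM. Its intensity in SJSA-1 was 197, 223 and 189 with DMSO, 191, 150.1 and 184 at 25 nM, 50.6, 53.4 and 33.6 at 100 nM and 45.9, 47.5 and 50.6 at 400 nM. In U2-OS it was 1737, 1636 and 1666 with DMSO, 1329, 1348 and 1325 at 25 nM, 123, 151 and 134 at 100 nM and 344, 272 and 198 at 400 nM. In both lines every array at 100 or 400 nM lay below every DMSO and 25 nM array of that line. At 100 nM PMEPA1 was 4.42-fold lower than DMSO in SJSA-1, a log2 change of -1.83 ± 0.13 (adjusted p = 3.03e-12), and 12.3-fold lower in U2-OS, a log2 change of -3.48 ± 0.13 (adjusted p = 9.11e-18). At 400 nM the log2 change was -1.77 ± 0.13 (adjusted p = 4.03e-12) in SJSA-1 and -2.59 ± 0.13 (adjusted p = 9.99e-16) in U2-OS.

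The PMEPA1 fall did not deepen beyond 100 nM. From 100 to 400 nM PMEPA1 rose by 0.89 ± 0.13 on the log2 scale in U2-OS (adjusted p = 1.65e-06), and every 400 nM array lay above every 100 nM array, although the 400 nM arrays are a normalization set of their own. In SJSA-1 that step was 0.064 ± 0.13 and did not pass (adjusted p = 0.755). At 25 nM the log2 changes of -0.20 ± 0.13 (adjusted p = 0.491) in SJSA-1 and -0.33 ± 0.13 (adjusted p = 1) in U2-OS did not pass. In U2-OS the 25 nM arrays all lay below the DMSO arrays, in a comparison where 24% of all genes had no overlap. A limma fit of these 6 arrays alone gave PMEPA1 an adjusted p of 1.63e-04. All 3 PMEPA1 probe sets fell at 100 and at 400 nM in both lines, with log2 changes between -1.83 and -0.86 in SJSA-1 and between -3.48 and -2.50 in U2-OS at 100 nM. The other probe sets are dimmer, so the 16 added before the log shrinks their changes more.

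**Figure D2:**
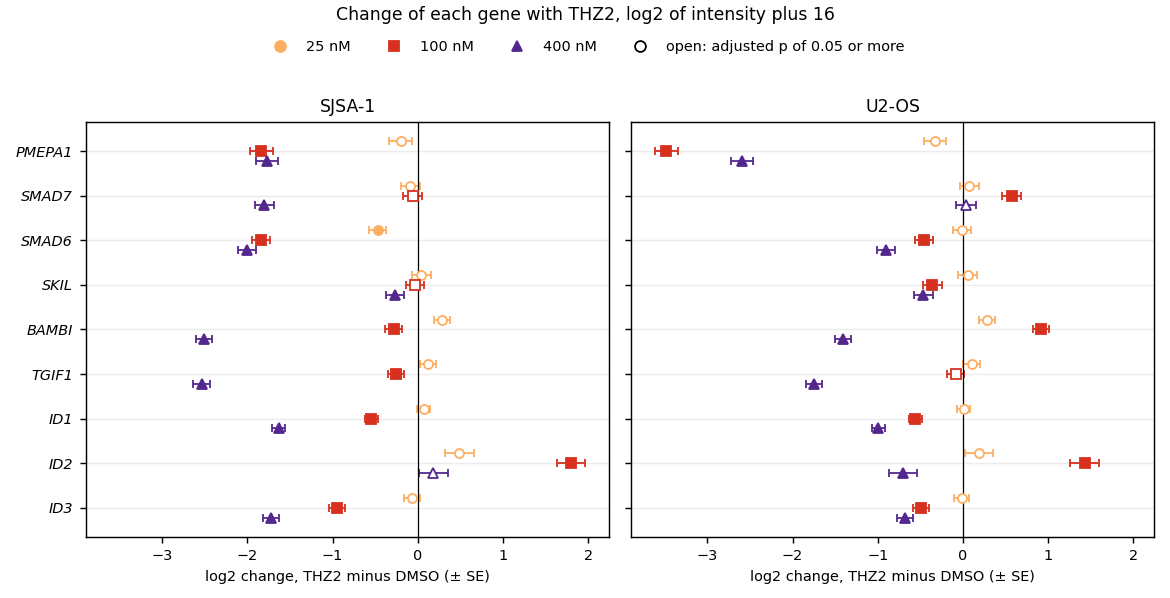
Log2 change of each gene against DMSO (± SE, n = 3 arrays per group) at each THZ2 dose, SJSA-1 left and U2-OS right; filled symbols passed the adjusted threshold. SMAD6 in SJSA-1 is the filled 25 nM symbol, and ID2 lies right of 0 at 100 nM in both lines.

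The inhibitory SMADs, SMAD6 and SMAD7, differed from each other and between the lines. SMAD6, which acts mainly on the BMP branch, had intensities in SJSA-1 of 109, 113 and 134 with DMSO, 79.3, 82.7 and 80.4 at 25 nM, 22.2, 26.4 and 17.03 at 100 nM and 17.3, 13.7 and 22.2 at 400 nM. All 25 nM arrays lay below the DMSO arrays, and the 100 and 400 nM arrays lay lower still and overlapped each other. SMAD6 was the member that fell in SJSA-1 at 25 nM, with a log2 change of -0.47 ± 0.11 (adjusted p = 0.00341). That call was lost with spike-in centring, where the value was -0.55, and with the mean of its probe sets, where it was -0.16. SMAD6 fell with log2 changes of -1.84 ± 0.11 (adjusted p = 2.18e-14) at 100 nM and -2.002 ± 0.11 (adjusted p = 1.60e-15) at 400 nM.

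In U2-OS SMAD6 had intensities of 60.5, 69.8 and 66.4 with DMSO, 69.5, 65.5 and 59.6 at 25 nM, 47.6, 39.1 and 43.7 at 100 nM and 30.02, 20.5 and 32.5 at 400 nM. The 100 and 400 nM arrays did not overlap the DMSO arrays, and it fell with log2 changes of -0.46 ± 0.11 (adjusted p = 9.27e-04) and -0.91 ± 0.11 (adjusted p = 1.48e-08). The 100 nM call was lost with the mean of the probe sets (-0.088). The 3 SMAD6 probe sets disagreed. The brightest, 11730338_a_at, carries the values above. Probe set 11730337_at rose by 0.19 in SJSA-1 at 400 nM, with 28.2 against 22.7 with DMSO, and fell with a log2 change of -0.25 in U2-OS at that dose. Probe set 11730339_a_at fell in SJSA-1 at 100 nM with a log2 change of -0.38 and did not pass elsewhere among the 100 and 400 nM comparisons. A fall was thus called by 2 of 3 probe sets in SJSA-1 at 100 nM and in U2-OS at 400 nM, and by the brightest alone in the other 2 comparisons.

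SMAD7, which blocks both branches and brings ubiquitin ligases to the receptors, showed no change that passed in SJSA-1 at 25 or 100 nM. Its intensities there were 96.3, 111 and 97.7 with DMSO, 93.1, 86.8 and 104 at 25 nM, 85.6, 115 and 91.1 at 100 nM and 15.1, 15.6 and 22.8 at 400 nM. The 400 nM arrays stood far below all others, and SMAD7 fell with a log2 change of -1.80 ± 0.11 (adjusted p = 8.04e-14), being 5.697-fold lower than DMSO. The 100 nM change of -0.062 ± 0.11 (adjusted p = 0.658) did not pass. In U2-OS the intensities were 188, 199 and 207 with DMSO, 216, 197 and 215 at 25 nM, 282, 317 and 308 at 100 nM and 162, 220.1 and 235 at 400 nM. Here SMAD7 rose at 100 nM by 0.57 ± 0.11 (adjusted p = 1.72e-04), with all 100 nM arrays above all DMSO arrays, and at 400 nM the change was 0.036 ± 0.11 (adjusted p = 0.786) with overlapping arrays. The U2-OS rise was called by 2 of 3 SMAD7 probe sets and lost with spike-in centring (0.21). All 3 fell in SJSA-1 at 400 nM, with log2 changes from -1.80 to -0.43.

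**Figure D3:**
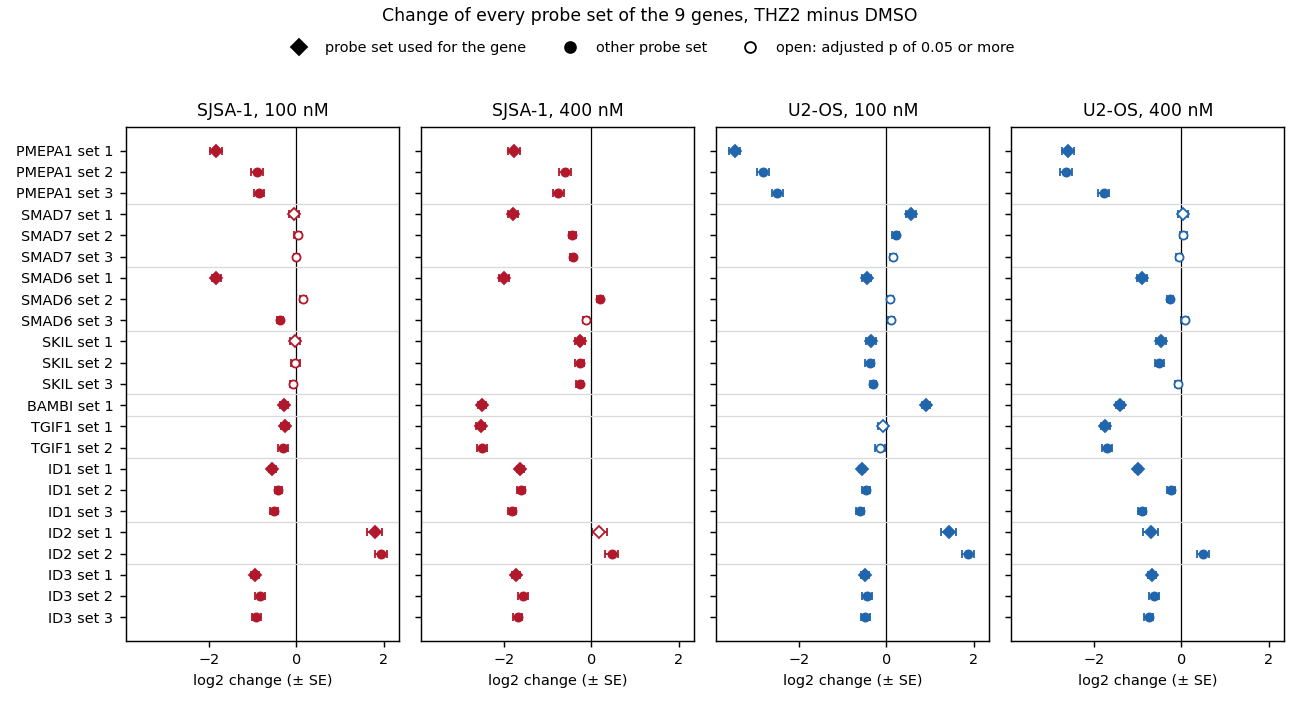
Log2 change (± SE, n = 3 arrays per group) of all 23 probe sets at 100 and 400 nM, SJSA-1 panels left and U2-OS panels right; diamonds are the probe sets used for the genes and filled symbols passed. The 3 PMEPA1 sets all lie left of 0, whereas the SMAD6 sets, and the ID2 sets in U2-OS at 400 nM, lie on both sides.

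BAMBI, the receptor decoy, was read by 1 probe set and fell in both lines at 400 nM. At 100 nM BAMBI rose in U2-OS and fell slightly in SJSA-1, with both calls lost in some settings given below. In SJSA-1 its intensities were 145, 189 and 162 with DMSO, 217, 195 and 198 at 25 nM, 134, 155 and 109.9 at 100 nM and 15.8, 14.6 and 16.8 at 400 nM. In U2-OS they were 65.3, 61.6 and 60.7 with DMSO, 76.6, 84.7 and 76.8 at 25 nM, 123, 138 and 134 at 100 nM and 12.7, 13.9 and 14.5 at 400 nM. The 400 nM arrays lay below 17 in both lines, far under every other array of their line. BAMBI was 10.5-fold lower than DMSO in SJSA-1 at 400 nM, a log2 change of -2.51 ± 0.095, and 4.57-fold lower in U2-OS, a log2 change of -1.40 ± 0.095 (adjusted p = 3.39e-13). Because 16 was added to values this dim, the log2 changes understate the ratios.

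At 100 nM BAMBI rose in U2-OS by 0.91 ± 0.095 (adjusted p = 6.05e-09), with no overlap between 100 nM and DMSO arrays, and lost the call with spike-in centring (0.55). In SJSA-1 BAMBI fell with a log2 change of -0.28 ± 0.095 (adjusted p = 0.0148), with overlapping arrays. That call was lost without SJSA-1 DMSO replicate 2 (-0.19), without SJSA-1 100 nM replicate 3 (-0.17) and with quantile normalization (-0.18). At 25 nM BAMBI had log2 changes of 0.28 ± 0.095 (adjusted p = 0.0675) in SJSA-1 and 0.28 ± 0.095 (adjusted p = 0.652) in U2-OS that did not pass. In both lines all 25 nM arrays lay above all DMSO arrays. Of all genes, 17.6% in SJSA-1 and 24% in U2-OS had no overlap in that comparison. Without SJSA-1 DMSO replicate 2 the SJSA-1 change at 25 nM was 0.37 and passed (adjusted p = 0.0216).

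The nuclear co-repressors TGIF1 and SKIL differed in size of change, although in SJSA-1 the low level of SKIL limits how far it could fall. TGIF1, a homeodomain protein that brings histone deacetylases to SMAD2 and SMAD3, had intensities in SJSA-1 of 174, 182 and 190.0 with DMSO, 197, 205 and 195 at 25 nM, 153, 181 and 121 at 100 nM and 17.5, 16 and 20.97 at 400 nM. In U2-OS they were 100.2, 98.4 and 99.9 with DMSO, 106, 118 and 101 at 25 nM, 92.9, 88.1 and 97.7 at 100 nM and 17.9, 16.5 and 21.04 at 400 nM. As with BAMBI, most of the loss came between 100 and 400 nM. TGIF1 fell at 400 nM with a log2 change of -2.54 ± 0.097 in SJSA-1, where it was 10.02-fold lower than DMSO, and with a log2 change of -1.75 ± 0.097 (adjusted p = 4.87e-15) in U2-OS, where it was 5.39-fold lower. Both TGIF1 probe sets fell in both lines at that dose. At 100 nM the U2-OS change was -0.085 ± 0.097 (adjusted p = 0.48) and did not pass. The SJSA-1 fall of -0.25 ± 0.097 (adjusted p = 0.032) at 100 nM had overlapping arrays. Its call was lost without SJSA-1 DMSO replicate 2 (-0.25) or 3 (-0.22), without SJSA-1 100 nM replicate 1 (-0.27) or 3 (-0.12), and with median centring (-0.22) or quantile normalization (-0.17).

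SKIL is a SKI family protein that binds SMAD complexes and is itself induced by TGF-beta. It had the smallest fall of the members that fell in each of the 3 comparisons with DMSO in which it passed. In SJSA-1 SKIL averaged 19.9 with DMSO and 13.8 at 400 nM, near the filter intensity of 12.7. In that line its rank and its difference in size from TGIF1 cannot be told apart from the low level of SKIL. Its intensities in SJSA-1 were 23.6, 15.7 and 20.5 with DMSO, 26.7, 16.4 and 19.97 at 25 nM, 17.6, 17.6 and 21.9 at 100 nM and 12.6, 11.3 and 17.6 at 400 nM. In U2-OS they were 191, 219 and 202 with DMSO, 223, 214 and 199 at 25 nM, 175, 158 and 134 at 100 nM and 154, 151 and 126 at 400 nM. The U2-OS arrays at 100 and 400 nM did not overlap the DMSO arrays, whereas the SJSA-1 arrays overlapped at every dose. SKIL fell in U2-OS with log2 changes of -0.36 ± 0.11 (adjusted p = 0.00945) at 100 nM and -0.47 ± 0.11 (adjusted p = 4.25e-04) at 400 nM. The call at 100 nM was lost without U2-OS DMSO replicate 2 (-0.31), without U2-OS 100 nM replicate 3 (-0.27) and with quantile normalization (-0.25). In SJSA-1 the change was -0.032 ± 0.11 (adjusted p = 0.814) at 100 nM, and SKIL fell with a log2 change of -0.27 ± 0.11 (adjusted p = 0.0333) at 400 nM. Its 3 probe sets all fell in U2-OS at 100 nM and in SJSA-1 at 400 nM, and 2 of 3 did in U2-OS at 400 nM. The SJSA-1 call was lost without SJSA-1 DMSO replicate 1 (-0.20) or 3 (-0.25), without SJSA-1 400 nM replicate 1 (-0.24) or 2 (-0.21), and with median centring (-0.22).

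ID1 and ID3, BMP targets that block differentiation factors, fell at 100 and 400 nM in both lines. ID1 had intensities in SJSA-1 of 2272, 2702 and 2539 with DMSO, 2521, 2721 and 2628 at 25 nM, 1618, 1951 and 1574 at 100 nM and 803, 776 and 803 at 400 nM. In U2-OS they were 2541, 2538 and 2572 with DMSO, 2622, 2601 and 2476 at 25 nM, 1649, 1733 and 1798 at 100 nM and 1119.6, 1289 and 1424 at 400 nM. In each line all ID1 arrays at 100 nM lay below the DMSO arrays and above the 400 nM arrays. ID1 fell at 100 nM with log2 changes of -0.55 ± 0.077 (adjusted p = 1.09e-06) in SJSA-1 and -0.56 ± 0.077 (adjusted p = 9.76e-07) in U2-OS. At 400 nM it fell with a log2 change of -1.63 ± 0.077 in SJSA-1, where it was 3.15-fold lower than DMSO, and with a log2 change of -0.995 ± 0.077 in U2-OS, where it was 1.997-fold lower. At 25 nM its log2 changes were 0.07 ± 0.077 in SJSA-1 and 0.0084 ± 0.077 in U2-OS. All 3 ID1 probe sets fell at 100 and 400 nM in both lines. Probe set 11716195_a_at did not fall further with dose in U2-OS, where it had changes of -0.47 at 100 nM and -0.24 at 400 nM.

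ID3 had intensities in SJSA-1 of 2062, 2574 and 2592 with DMSO, 2179.8, 2402 and 2288 at 25 nM, 1209, 1323 and 1176 at 100 nM and 714, 787 and 644 at 400 nM. In U2-OS they were 796, 799 and 776 with DMSO, 770.4, 788 and 783 at 25 nM, 509, 587 and 584 at 100 nM and 412, 517 and 538 at 400 nM. The ID3 arrays at 100 and 400 nM did not overlap those with DMSO in either line. ID3 fell at 100 nM with log2 changes of -0.95 ± 0.093 (adjusted p = 1.34e-09) in SJSA-1 and -0.49 ± 0.093 (adjusted p = 9.88e-05) in U2-OS, and at 400 nM with changes of -1.73 ± 0.093 in SJSA-1 and -0.68 ± 0.093 (adjusted p = 2.38e-07) in U2-OS. Its 3 probe sets all fell in these 4 comparisons, in SJSA-1 at 400 nM with log2 changes from -1.73 to -1.56. From 100 to 400 nM ID3 fell further in SJSA-1 with a log2 change of -0.78 ± 0.093 (adjusted p = 1.36e-07). In U2-OS that step of -0.20 ± 0.093 did not pass (adjusted p = 0.0673), but passed without U2-OS 100 nM replicate 1 (-0.26) or U2-OS 400 nM replicate 3 (-0.27).

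ID2, the family member also known as a partner of the retinoblastoma protein, went the other way at 100 nM. Its intensities in SJSA-1 were 73.01, 52.3 and 74.5 with DMSO, 102, 97.7 and 97.7 at 25 nM, 246, 251 and 317 at 100 nM and 81.01, 61.4 and 91.1 at 400 nM. In U2-OS they were 245, 295 and 270.2 with DMSO, 317, 301 and 309 at 25 nM, 862, 698 and 705 at 100 nM and 99.1, 183 and 218 at 400 nM. In both lines every 100 nM array lay above every array at any other dose. ID2 rose at 100 nM by 1.80 ± 0.17 (adjusted p = 4.45e-10) in SJSA-1, where it was 4.07-fold higher than DMSO, and by 1.43 ± 0.17 (adjusted p = 5.05e-08) in U2-OS, where it was 2.796-fold higher. Both ID2 probe sets rose in both lines at that dose, with log2 changes of 1.94 in SJSA-1 and 1.88 in U2-OS for the second.

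The ID2 rise did not hold at 400 nM. From 100 to 400 nM ID2 fell with log2 changes of -1.62 ± 0.17 in SJSA-1 and -2.13 ± 0.17 in U2-OS (adjusted p = 9.42e-09 and 1.40e-11). Against DMSO the SJSA-1 value at 400 nM was 0.18 ± 0.17 (adjusted p = 0.333), with overlapping arrays, and turned to -0.76 with spike-in centring (adjusted p = 0.00551). The second probe set rose there by 0.46. In U2-OS at 400 nM the brighter ID2 probe set fell with a log2 change of -0.71 ± 0.17 (adjusted p = 4.67e-04) while the other rose by 0.50, and the mean of both, -0.11, did not pass, so no direction is given for ID2 there. At 25 nM ID2 had log2 changes of 0.49 ± 0.17 (adjusted p = 0.0716) in SJSA-1 and 0.19 ± 0.17 in U2-OS. The SJSA-1 change at 25 nM passed with the mean of the probe sets (0.60). The names of both ID2 probe sets end in x_at or s_at, Affymetrix's mark for probes that can match other transcripts, which was not tested. The brightest probe sets of ID1 and ID3 end in x_at as well. Among the pathway genes named below, those of GDF15 and JUNB end in x_at, and those of TGFBR2, SMAD3, RNF111 and KLF10 in s_at.

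ID4, the remaining family member, was added to complete the ID genes and is not one of the 9. In SJSA-1 the intensity of its brightest probe set, 11721687_at, was 6.54, 6.92 and 7.52 with DMSO, 13.6, 8.57 and 9.85 at 25 nM, 5.28, 7.36 and 7.36 at 100 nM and 6.77, 6.73 and 5.94 at 400 nM. All 4 SJSA-1 group means of it were under the filter intensity of 12.7, with 1 array at 25 nM above it, so no fold is given. Another probe set, 11721689_x_at, read 23.2 at 100 nM against 18.1 with DMSO in SJSA-1 and rose there by 0.20 at 100 nM and 0.20 at 400 nM. Probe set 11721688_at rose in SJSA-1 at 25 nM by 0.29 and fell at 400 nM with a log2 change of -0.29. In U2-OS the brightest probe set read 131, 156 and 139 with DMSO, 156, 169 and 168 at 25 nM, 127, 121 and 120.1 at 100 nM and 25.7, 41.2 and 39.3 at 400 nM. ID4 fell in U2-OS at 400 nM with a log2 change of -1.63 ± 0.09 (adjusted p = 4.68e-15), with no overlap, and at 100 nM its change of -0.18 ± 0.09 (adjusted p = 0.105) did not pass. Of its 4 probe sets 2 fell and 1 rose in U2-OS at 400 nM, so the direction of the fall holds for 2 of them. With DMSO, the brightest ID4 probe set was at least 11.1-fold lower in SJSA-1 than in U2-OS, taking the SJSA-1 arrays at the filter intensity, and across sets normalized apart. Probe set 11721689_x_at had 18.1 in SJSA-1 against 36.5 in U2-OS with DMSO.

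Which dose step carried the loss differed by gene. From 25 to 100 nM 1 member rose and 6 fell in SJSA-1 (18.6% of all genes rose and 23.1% fell), and 3 rose and 5 fell in U2-OS (24.8% of all genes rose and 23.3% fell). From 100 to 400 nM none rose and 6 fell in SJSA-1 (14.9% of all genes rose and 11.7% fell), and 1 rose and 6 fell in U2-OS (44.4% of all genes rose and 20.3% fell). The 25 to 100 nM step held the falls of PMEPA1, at -1.64 ± 0.13 in SJSA-1 and -3.15 ± 0.13 in U2-OS, and of SMAD6 in SJSA-1 (-1.36 ± 0.11). The 100 to 400 nM step held the larger falls of TGIF1, at -2.28 ± 0.097 in SJSA-1 and -1.66 ± 0.097 in U2-OS. BAMBI in that step fell with log2 changes of -2.22 ± 0.095 in SJSA-1 and -2.31 ± 0.095 in U2-OS. SMAD7 fell with log2 changes of -1.74 ± 0.11 in SJSA-1 and -0.54 ± 0.11 in U2-OS, where the U2-OS call was lost with spike-in centring (-0.49). From 25 to 100 nM TGIF1 and BAMBI also fell in SJSA-1, with log2 changes of -0.37 ± 0.097 (adjusted p = 0.00251) and -0.57 ± 0.095 (adjusted p = 1.68e-05).

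The difference between the lines in the response to THZ2 was tested as an interaction, the SJSA-1 change minus the U2-OS change. No member passed at 25 nM, where 0.179% of all genes had a positive and 0.915% a negative difference that passed. At 100 nM 5 of 9 differed, PMEPA1 with a positive difference (7.15% of all genes) and 4 with a negative one (9.74%). At 400 nM 8 of 9 differed, 2 with a positive difference (14.5% of all genes) and 6 with a negative one (31.4%). PMEPA1 fell less in SJSA-1 than in U2-OS, with differences of 1.65 ± 0.19 (adjusted p = 2.39e-07) at 100 nM and 0.82 ± 0.19 (adjusted p = 8.03e-04) at 400 nM. The 400 nM difference was not called with spike-in centring (0.19).

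By their brightest probe sets, SMAD6, SMAD7, BAMBI and TGIF1 had more negative changes from DMSO in SJSA-1 than in U2-OS. SMAD6 differed by -1.38 ± 0.15 (adjusted p = 9.74e-08) at 100 nM and -1.09 ± 0.15 (adjusted p = 1.16e-06) at 400 nM. At 400 nM its probe set 11730337_at went against this, having risen by 0.19 in SJSA-1 and fallen in U2-OS. At 100 nM that probe set had 0.16 in SJSA-1 and at most 0.10 in U2-OS, neither of which passed. It did not share the negative difference there. SMAD7 differed by -0.63 ± 0.16 (adjusted p = 0.00553) at 100 nM and -1.84 ± 0.16 (adjusted p = 4.84e-10) at 400 nM, and BAMBI by -1.20 ± 0.13 (adjusted p = 1.83e-07) and -1.10 ± 0.13 (adjusted p = 1.89e-07). At 400 nM TGIF1 differed by -0.79 ± 0.14 (adjusted p = 3.43e-05). For BAMBI and TGIF1 the DMSO level was higher in SJSA-1 while the 400 nM levels were close, at 15.7 ± 1.09 in SJSA-1 against 13.7 ± 0.92 in U2-OS for BAMBI and 18.2 ± 2.55 against 18.5 ± 2.34 for TGIF1. With spike-in centring the 100 nM differences of SMAD7 (-0.72) and BAMBI (-1.28) kept their sign and were no longer called.

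Among the ID genes, ID3 fell more in SJSA-1, with differences of -0.46 ± 0.13 (adjusted p = 0.014) at 100 nM and -1.04 ± 0.13 (adjusted p = 3.30e-07) at 400 nM, and ID1 did so at 400 nM (-0.64 ± 0.11, adjusted p = 2.98e-05). The 100 nM difference of ID1 was 0.014 ± 0.11 (adjusted p = 0.969) and that of ID2 was 0.37 ± 0.24 (adjusted p = 0.345), and neither passed. At 400 nM ID2 differed by 0.89 ± 0.24 (adjusted p = 0.00306), which was lost with the mean of its probe sets (0.43) and with spike-in centring (0.26). With spike-in centring the 100 nM difference of ID3 (-0.54) was no longer called. SKIL did not pass at 100 nM (0.33 ± 0.15, adjusted p = 0.162) or 400 nM (0.20 ± 0.15, adjusted p = 0.305).

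**Figure D4:**
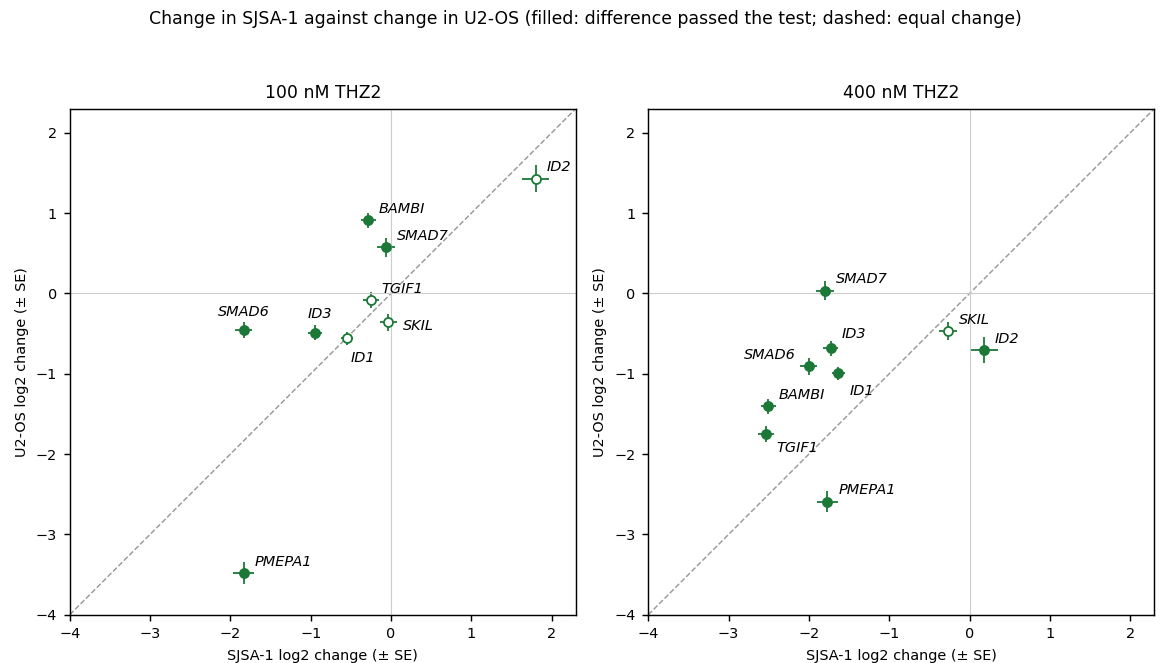
Log2 change in SJSA-1 (horizontal) against log2 change in U2-OS (vertical) of the 9 genes at 100 nM (left) and 400 nM (right), ± SE with n = 3 arrays per group; filled points passed the test of the difference, which the text gives with the settings that end it, and the dashed line marks equal change. At 400 nM 6 filled points lie left of the line, and PMEPA1 and ID2 lie right of it.

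With DMSO the lines also started from different levels, 4 members being higher and 4 lower in SJSA-1 than in U2-OS (of all genes, 21.7% were higher and 63.5% lower). PMEPA1 averaged 203 ± 17.9 in SJSA-1 and 1679.7 ± 52.2 in U2-OS, and SKIL averaged 19.9 ± 3.99 and 204 ± 13.7 in the same order. SMAD7 and ID2 were lower in SJSA-1 as well, at 102 ± 7.91 against 198 ± 9.51 and 66.6 ± 12.4 against 270.1 ± 24.8. ID3 was higher in SJSA-1, at 2409.6 ± 301 against 790.3 ± 12.7, and so were BAMBI, at 165 ± 22.03 against 62.5 ± 2.45, and TGIF1, at 182 ± 8.19 against 99.5 ± 0.96. SMAD6 was at 119 ± 13.6 in SJSA-1 against 65.5 ± 4.72 in U2-OS. With spike-in centring SMAD6 (-0.38) and TGIF1 (-0.32) turned to lower in SJSA-1 without passing, and BAMBI (0.10) and ID3 (0.48) no longer passed. ID1 averaged 2505 ± 217 in SJSA-1 and 2550.4 ± 18.6 in U2-OS, and its direction changed with the scaling. Line and normalization set cannot be told apart in any of these.

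The rest of the pathway was counted from 5 lists holding 86 genes, of which 3 were not analysed here. The lists were chosen with earlier results of these data known. Of all genes, the shares that rose and fell were 24.4% and 25.1% in SJSA-1 and 19.8% and 22.2% in U2-OS at 100 nM, and 41.4% and 24.9% in SJSA-1 and 48.4% and 25.0% in U2-OS at 400 nM. Of the 6 signalling SMADs, none rose and 2 fell at 100 nM in each line, with list medians of -0.11 in SJSA-1 and -0.042 in U2-OS, against 0.057 and 0.058 over all genes. SMAD1, the BMP-branch receptor SMAD, averaged 33.8 at 100 nM against 125 with DMSO in SJSA-1 and 84.95 at 100 nM against 259 with DMSO in U2-OS. It fell with log2 changes of -1.50 ± 0.11 (adjusted p = 6.42e-12) in SJSA-1 and -1.45 ± 0.11 (adjusted p = 1.84e-11) in U2-OS, and both of its probe sets fell. SMAD3, of the TGF-beta branch, fell with a log2 change of -1.40 ± 0.11 (adjusted p = 3.23e-11) in SJSA-1, where all 5 of its probe sets fell, and with a log2 change of -0.88 ± 0.11 (adjusted p = 3.21e-07) in U2-OS, where 2 of 5 did. At 400 nM 3 of 6 fell in SJSA-1, and 2 rose and 2 fell in U2-OS. In U2-OS at 400 nM SMAD3 had a log2 change of 0.029 ± 0.11 (adjusted p = 0.827), while SMAD1 fell with a log2 change of -2.18 ± 0.11.

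Of the 15 ligands 5 rose and 1 fell at 100 nM in SJSA-1 (all genes 24.4% and 25.1%), and 5 rose and 2 fell in U2-OS (19.8% and 22.2%). At 400 nM 7 rose and 3 fell in SJSA-1 (all genes 41.4% and 24.9%), and 9 rose and 4 fell in U2-OS (48.4% and 25.0%). The list medians at 400 nM, 0.11 in SJSA-1 and 0.14 in U2-OS, were near those of all genes, 0.10 and 0.15. GDF15, a stress-induced member of the superfamily, averaged 429.7 at 100 nM against 159.6 with DMSO in SJSA-1 and rose by 1.31 ± 0.13 (adjusted p = 8.04e-10) at 100 nM, and by 0.43 ± 0.13 (adjusted p = 0.00683) in U2-OS. The U2-OS rise was called by 2 of 5 probe sets and lost without U2-OS 100 nM replicate 3 (0.35) and with spike-in centring (0.074). TGFB1, the best known TGF-beta ligand, rose at 100 nM by 0.43 ± 0.11 (adjusted p = 0.00127) in SJSA-1 and 0.35 ± 0.11 (adjusted p = 0.00878) in U2-OS, but with spike-in centring the values were -0.011 in SJSA-1 and -0.0065 in U2-OS. The U2-OS call was also lost without U2-OS DMSO replicate 3 (0.30). BMP4, a BMP ligand, fell in SJSA-1 at 100 nM with a log2 change of -0.41 ± 0.11 (adjusted p = 0.00363), a call lost without SJSA-1 100 nM replicate 3 (-0.25). At 25 nM BMP4 rose there by 0.67, averaging 122 against 70.8 with DMSO. It was the 1 ligand of 15 that passed at that dose, where 1.97% of all genes rose and 6.28% fell. TGFB2 fell in U2-OS at 100 nM with a log2 change of -0.48 ± 0.073 (adjusted p = 3.96e-06) by its brighter probe set, while the other probe set had 0.023.

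Among 11 of 12 receptors measured, 1 rose and 3 fell in SJSA-1 at 100 nM (all genes 24.4% and 25.1%), and 2 rose and 4 fell in U2-OS (19.8% and 22.2%). At 400 nM 2 rose and 6 fell in SJSA-1 (all genes 41.4% and 24.9%), and 4 rose and 5 fell in U2-OS (48.4% and 25.0%). TGFBR2, the receptor that binds TGF-beta ligands directly, averaged 405 at 100 nM against 530.1 with DMSO in SJSA-1 and 332 at 100 nM against 564 with DMSO in U2-OS. It fell with log2 changes of -0.37 ± 0.11 (adjusted p = 0.00697) in SJSA-1 and -0.74 ± 0.11 (adjusted p = 3.06e-06) in U2-OS, in its brighter probe set only, the other giving 0.065 and 0.093 in the same order. The SJSA-1 call was lost without SJSA-1 DMSO replicate 1 (-0.23). ACVR1B, an activin receptor, fell in SJSA-1 with a log2 change of -0.84 ± 0.10 (adjusted p = 8.56e-08), with 2 of its 5 probe sets called lower and 1 called higher.

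The regulators, 25 of 26 measured, held the largest falls of the 5 lists at 100 nM. In SJSA-1 7 rose and 11 fell at 100 nM (all genes 24.4% and 25.1%), and 4 rose and 11 fell at 400 nM (41.4% and 24.9%). In U2-OS 3 rose and 8 fell at 100 nM (all genes 19.8% and 22.2%), and 9 rose and 10 fell at 400 nM (48.4% and 25.0%). RNF111, also called Arkadia, a ubiquitin ligase that degrades SMAD7 and SKIL, averaged 20.6 at 100 nM against 168 with DMSO in SJSA-1 and 24.99 at 100 nM against 144 with DMSO in U2-OS. It fell with a log2 change of -2.36 ± 0.11 (adjusted p = 6.37e-16) in SJSA-1, where 3 of 3 probe sets fell, and with a log2 change of -1.97 ± 0.11 (adjusted p = 4.36e-14) in U2-OS, where 2 of 3 did. TGIF2, the paralog of TGIF1, fell with log2 changes of -2.05 ± 0.11 in SJSA-1 and -1.29 ± 0.11 in U2-OS at 100 nM, a dose at which TGIF1 had -0.25 and -0.085. SMURF2, the ubiquitin ligase that SMAD7 brings to the receptors, fell with log2 changes of -1.27 ± 0.082 in SJSA-1 and -1.05 ± 0.082 in U2-OS.

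Of the other SMAD target genes 26 of 27 were measured. In SJSA-1 8 rose and 8 fell at 100 nM (all genes 24.4% and 25.1%), and 3 rose and 11 fell at 400 nM (41.4% and 24.9%). In U2-OS 7 rose and 3 fell at 100 nM (all genes 19.8% and 22.2%), and 12 rose and 8 fell at 400 nM (48.4% and 25.0%). JUNB, an AP-1 subunit, rose at 100 nM by 1.14 ± 0.11 (adjusted p = 1.41e-09) in SJSA-1 and 1.36 ± 0.11 (adjusted p = 5.86e-11) in U2-OS. At 400 nM JUNB rose by 0.47 ± 0.11 in SJSA-1, turning to -0.48 with spike-in centring, and by 1.84 ± 0.11 in U2-OS. GADD45B, a stress and TGF-beta response gene, rose at 100 nM by 0.94 ± 0.093 in SJSA-1 and 1.21 ± 0.093 in U2-OS, in all 4 of its probe sets. At 400 nM its log2 changes against DMSO were -0.10 ± 0.093 in SJSA-1 and 0.23 ± 0.093 in U2-OS, the U2-OS value turning to -0.086 with spike-in centring. Of the 4 probe sets at 400 nM, 1 was called higher in SJSA-1, with changes from -0.10 to 0.20. In U2-OS all 4 were called higher, with changes from 0.23 to 0.84. SNAI2, a mesenchymal transcription factor, fell with log2 changes of -0.64 ± 0.15 in SJSA-1 and -0.86 ± 0.15 in U2-OS. KLF10, the TGF-beta inducible early gene, fell in SJSA-1 with a log2 change of -0.81 ± 0.11 (adjusted p = 2.53e-07) and had 0.086 ± 0.11 (adjusted p = 0.518) in U2-OS, with its 2 probe sets alike in both lines.

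**Figure D5:**
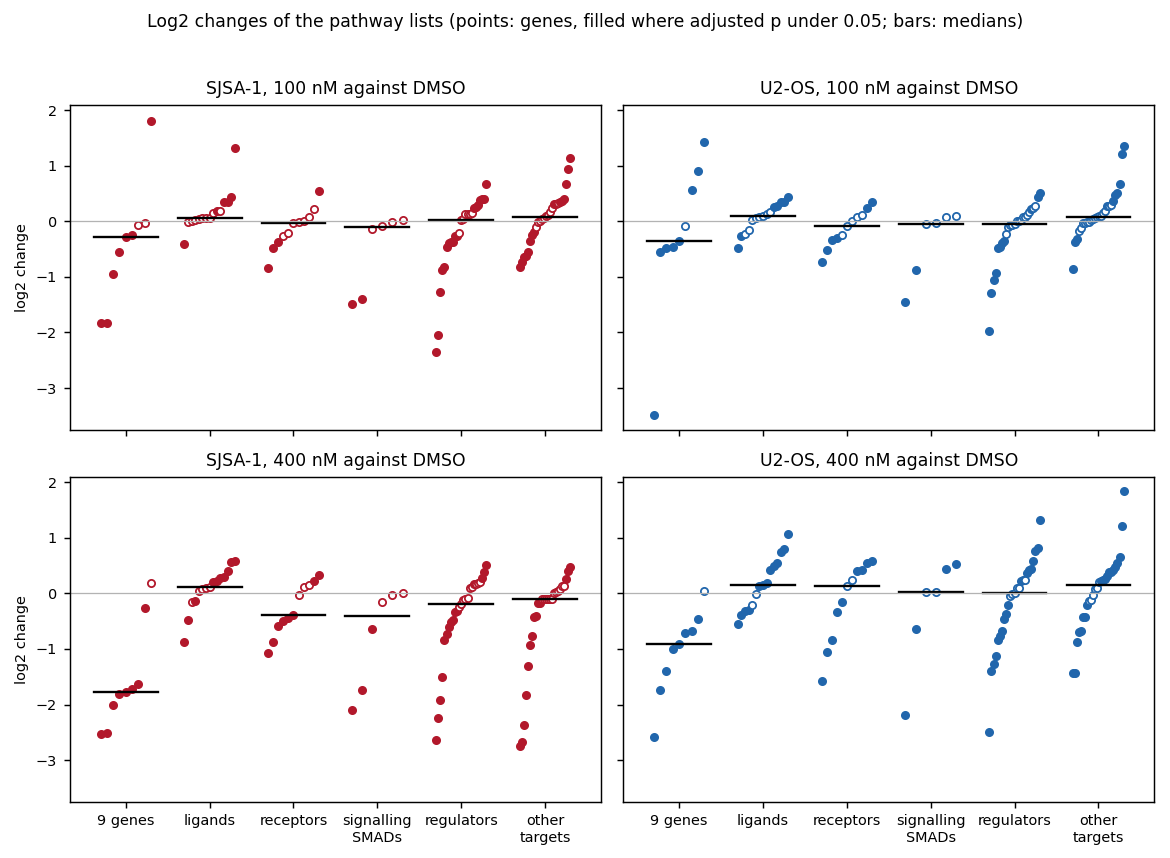
Log2 change against DMSO of the 9 genes and of the genes of each pathway list, at 100 nM (upper row) and 400 nM (lower row), SJSA-1 left and U2-OS right; filled points passed and bars are medians. The 9 genes, which were chosen with results known, have the lowest median in all 4 panels, and single genes lie below -1 in several of the lists.

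The genes with the most similar course were taken as those with the smallest Euclidean distance over the 6 log2 changes (3 doses, 2 lines), a description over 24 arrays in which all genes share the controls. For PMEPA1 these were GOPC at a distance of 1.02, YAE1 at 1.18 and FRMD6 at 1.199. For ID2 they were ZMYM5 at 1.04, JAG1 at 1.05 and PRKAA1 at 1.11. These are farther than the nearest genes of ID1, MEF2D at 0.23, of ID3, TSSC4 at 0.27, and of TGIF1, PITPNB at 0.32. BAMBI lay nearest to ING1, at 0.51.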

How the data were processed

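RNA of 24 cell line samples was measured on PrimeView arrays. The authors deposited linear intensity values, 1 for each probe set on each array. MAS5 and RMA were used, per the submitters' processing notes. Which of them made these values, and their versions, are not given in the sources used here. In SJSA-1 the log2 of every value was a whole number of hundredths (tolerance 1e-04).

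Of 49372 probe sets, 44988 named 1 gene in the platform annotation and were used. 79 were controls, 1832 named several genes and 2473 named none. A RefSeq table held 44961 of the 44988 and changed no symbol. Values were transformed as log2(intensity + 16). Each gene was read from the brightest of its probe sets, by the mean of the 24 arrays. Genes were left out if no group mean reached 12.7, the 30th percentile of all values. Group means were fitted with limma 3.58.1 in R 4.3.3 (empirical Bayes with intensity trend, 16 residual degrees of freedom, 14 contrasts, no replicate block), with Benjamini-Hochberg adjustment within a contrast and a threshold of 0.05. The script was tested on simulated data. For 3 arrays against 3, the smallest two-sided p of an exact permutation test is 0.1. A lower bound of a fold set each array of the dimmer group to at least 12.7.

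The members, gene lists, contrasts and naming rule were chosen with earlier results of these data known. Named were the 9 members, ID4, up to 3 genes per list and line with the largest change at 100 nM among those that passed, and the nearest genes of a few members. Not every gene the rule allowed is named. Replicate numbers were not taken to pair the arrays, since the labels give no pairing and not every same-numbered pair correlated: same-numbered pairs had correlations of their deviations from the group means from -0.634 to 0.42 in SJSA-1 and from -0.0845 to 0.327 in U2-OS. Alternatives were centring on the median, the 24 poly-A spike-in probe sets or 73 ribosomal protein genes, quantile normalization, leaving out the filter or setting it at the 50th percentile, pseudocounts of 1 and 64, averaging over the probe sets of a gene, each probe set by itself, no trend, the replicate block, fewer groups in the fit, and leaving out each array.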

Additional observations from a re-analysis of the deposited data

Results flagged for a closer look

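The results below stand out because the effect of THZ2 differed between the lines by the interaction test in limma, as the SJSA-1 log2 change minus the U2-OS log2 change with its adjusted p. At 100 nM PMEPA1 differed by 1.65 ± 0.19 (adjusted p = 2.39e-07), SMAD6 by -1.38 ± 0.15 (adjusted p = 9.74e-08), BAMBI by -1.20 ± 0.13 (adjusted p = 1.83e-07), SMAD7 by -0.63 ± 0.16 (adjusted p = 0.00553) and ID3 by -0.46 ± 0.13 (adjusted p = 0.014). At 400 nM PMEPA1 differed by 0.82 ± 0.19 (adjusted p = 8.03e-04) and ID2 by 0.89 ± 0.24 (adjusted p = 0.00306). The other 400 nM differences were negative: SMAD7 -1.84 ± 0.16, BAMBI -1.10 ± 0.13, SMAD6 -1.09 ± 0.15, ID3 -1.04 ± 0.13, TGIF1 -0.79 ± 0.14 and ID1 -0.64 ± 0.11. At 400 nM BAMBI and TGIF1 averaged 15.7 and 18.2 in SJSA-1 and 13.7 and 18.5 in U2-OS, near the filter intensity of 12.7. Their 400 nM differences cannot be told apart from the differences in their DMSO levels. For SMAD6 at 400 nM, probe set 11730337_at went the other way, having risen by 0.19 in SJSA-1 and fallen in U2-OS. At 100 nM it did not share the negative difference, with 0.16 in SJSA-1 and at most 0.10 in U2-OS, neither of which passed. The U2-OS arrays at 400 nM are a normalization set of their own, so at that dose line and set cannot be told apart. With spike-in centring the calls of PMEPA1 (0.19) and ID2 (0.26) at 400 nM and of BAMBI (-1.28), SMAD7 (-0.72) and ID3 (-0.54) at 100 nM were lost, and that of ID2 also with the mean of its probe sets (0.43). Groups of 3 arrays are too small for the test of single outlying arrays, which was not run.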

How the results depend on the processing

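The counts of members that passed stayed within 1.5 times the reported ones except as follows. In U2-OS at 25 nM 2 passed when only the groups compared were fitted (PMEPA1 and BAMBI), against 0. In SJSA-1 at 25 nM the count was 0 with spike-in centring and 2 with quantile normalization, with a pseudocount of 64 and with only the groups compared, against 1, and leaving out 1 array gave 1 to 2, with 2 without SJSA-1 DMSO replicate 2. With spike-in centring 4 passed from 100 to 400 nM in U2-OS against 7, 2 line differences passed at 100 nM against 5, and 5 members differed between the DMSO groups against 8. With a pseudocount of 64, 1 line difference passed at 25 nM (SMAD6) against 0. Leaving out each array gave 5 to 7 in SJSA-1 at 100 nM, 7 to 8 in SJSA-1 at 400 nM, 7 to 8 in U2-OS at 100 nM, 7 to 8 from 100 to 400 nM in U2-OS and 6 to 7 in SJSA-1. Signs turned with spike-in centring for the SJSA-1 minus U2-OS DMSO values of SMAD6 (-0.38) and TGIF1 (-0.32), for the SJSA-1 400 nM values of ID2 (-0.76), GDF15 (-0.38), TGFB1 (-0.67) and JUNB (-0.48), for TGFB1 at 100 nM in SJSA-1 (-0.011) and U2-OS (-0.0065), and for GADD45B in U2-OS at 400 nM (-0.086). With the mean of the probe sets ACVR1B in U2-OS at 100 nM turned to 0.063 and the DMSO value of ID1 to 0.33, which was 0.26 with median centring. The cause was not tested. The replicate number as a block changed none of the 14 member counts by over 1.5 times, and among the members it added 1 call, ID3 from 100 to 400 nM in U2-OS (-0.20, adjusted p = 0.0361). The numbers are not known to pair the arrays: 5 of 12 SJSA-1 and 9 of 12 U2-OS arrays correlated best with their own number. The fit of 1 line alone has no value for comparisons between the lines. Signal limits SKIL and ID4 in SJSA-1, near or under the filter intensity of 12.7. It also limits BAMBI and TGIF1 at 400 nM in both lines, with means of 13.7 to 18.5. In SJSA-1 at 400 nM it limits SMAD6 and SMAD7 too, with means of 17.7 and 17.8.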
